A study of Macaca fascicularis with 3 samples.

Results

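A set of 4 mature miRNAs of white blood cells was followed in the kidney cortex of cynomolgus monkeys: mfa-miR-142-3p, mfa-miR-142-5p, mfa-miR-150-5p and mfa-miR-223, written without the species prefix from here on. They were taken by name from the deposited table of raw read counts, are 4 of the 432 mature miRNAs listed there, and are the only names of the miR-142, miR-150 and miR-223 hairpins in it. The table gives miR-223 no arm, and the authors' second table pairs it with human miR-223-3p. The study profiled small RNA from the cortex, the outer kidney layer with the glomeruli and most proximal tubules, of 3 naïve Macaca fascicularis aged 2 to 3 years. Each animal gave 1 library from 25 to 30 mg of frozen tissue, and all 3 libraries form 1 untreated group, so the comparisons that can be made are between miRNAs and between animals. The labels name no strain, genotype, agent or blood removal, and do not say from which side or depth of the cortex the pieces came.

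miRNAs are short RNAs that pair with messenger RNAs through their seed, the bases near the 5′ end, and lower the output of those messengers. miR-142 is made in nearly all blood-forming lineages and hardly at all outside them, and both arms of its hairpin act as guides. miR-150 accumulates in mature B, T and NK lymphocytes, where the transcription factor MYB is a known target, and miR-223 belongs to the myeloid line, being abundant in neutrophils and monocytes and also found in platelets. In kidney, such miRNAs can come from resident macrophages, dendritic cells and lymphocytes, from infiltrating cells, or from blood held in the vessels. In a bulk library fewer cells of a type and less RNA per cell cannot be told apart, and neither can resident and circulating cells.

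Depth was similar, with 4305977, 4707892 and 3957188 counts over the 432 names in animals 1, 2 and 3, so that 3 counts, the limit that a count of 0 allows, corresponded to 0.637 to 0.758 CPM, the counts per 1000000 listed counts. The tissue label was checked against miRNAs known from tubules and vessels: the tubule list (miR-204, miR-215, miR-194 and miR-192) summed to between 53073 and 61982 CPM, and the endothelial miR-126 to between 39923 and 49842 CPM. In the same libraries the neuronal list (miR-124 and miR-9) summed to between 107 and 131 CPM. Most of the tubule sum was miR-204-5p, with 48124 of 57370 CPM on average. The tubule miR-215-5p averaged 18.9 CPM, less than the neuronal sum.

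Together the 4 leucocyte miRNAs took 0.162% ± 0.0105 (SD, n = 3) of the listed counts. By animal, the share was 0.162% for the first library, with a Wilson 95% confidence interval from 0.158 to 0.166, then 0.173% (0.169 to 0.176) for animal 2, and 0.152% (0.148 to 0.156) for animal 3. With totals as the scale the 3 intervals did not overlap, animal 2 being highest and animal 3 lowest. Here and below the intervals cover counting error of reads only, and not the spread between animals or library preparations. The labels name no molecular identifiers, so copies of 1 molecule may have been counted more than once. When the libraries were scaled by the trimmed mean of M values (TMM), which aligns the bulk of the miRNAs instead of the totals, the summed level was 1603, 1642 and 1614 CPM in animals 1, 2 and 3. The highest animal then exceeded the lowest 1.02-fold, against 1.14-fold with totals. DESeq2 size factors gave 1619, 1611 and 1662 CPM, a span of 1.03-fold with animal 2 now lowest and animal 3 highest. The order of the animals in the summed level thus changed with the scaling and is not resolved. Totals moved the median of the 391 miRNAs that averaged 10 or more counts by 0.11 on the log2 scale in animal 2 and by -0.09 in animal 3, relative to the mean of the animals, so spans between animals are given on the TMM scale, while levels stay in CPM of totals unless said otherwise.

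miR-142-3p, the dominant arm of the pan-leucocyte hairpin, was the most abundant of the 4. Its counts were 3933, 4591 and 2736 in animals 1, 2 and 3, or 913 CPM (exact Poisson 95% interval 885 to 942), 975 CPM (947 to 1004) and 691 CPM (666 to 718). Animals 1 and 2 lay close together and animal 3 lay below both. The mean was 860 CPM ± 149 (SD, n = 3), which put miR-142-3p at rank 89 of the 432 names.

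miR-150-5p, the lymphocyte miRNA, followed with 2217, 2153 and 2514 counts in animals 1, 2 and 3. These were 515 CPM (494 to 537), 457 CPM (438 to 477) and 635 CPM (611 to 661). Here the order of the animals was the opposite one, with animal 3 highest and animal 2 lowest, and no 2 intervals overlapped. The mean was 536 CPM ± 90.8 (SD, n = 3), at rank 100.

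miR-223, the myeloid miRNA, had 605, 1153 and 633 counts, or 141 CPM (129.5 to 152), 245 CPM (231 to 259) and 160 CPM (148 to 173) in animals 1, 2 and 3. Animal 2 stood above the other two, whose intervals overlapped. The mean was 182 CPM ± 55.5 (SD, n = 3), at rank 146.

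miR-142-5p, the minor arm, was the least abundant, with 224, 233 and 123 counts. That was 52.0 CPM (45.4 to 59.3), 49.5 CPM (43.3 to 56.3) and 31.1 CPM (25.8 to 37.1) in animals 1, 2 and 3. As for the 3p arm, animal 3 was lowest, and the intervals of animals 1 and 2 overlapped. Its mean was 44.2 CPM ± 11.4 (SD, n = 3), at rank 215.

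**Figure D1:**
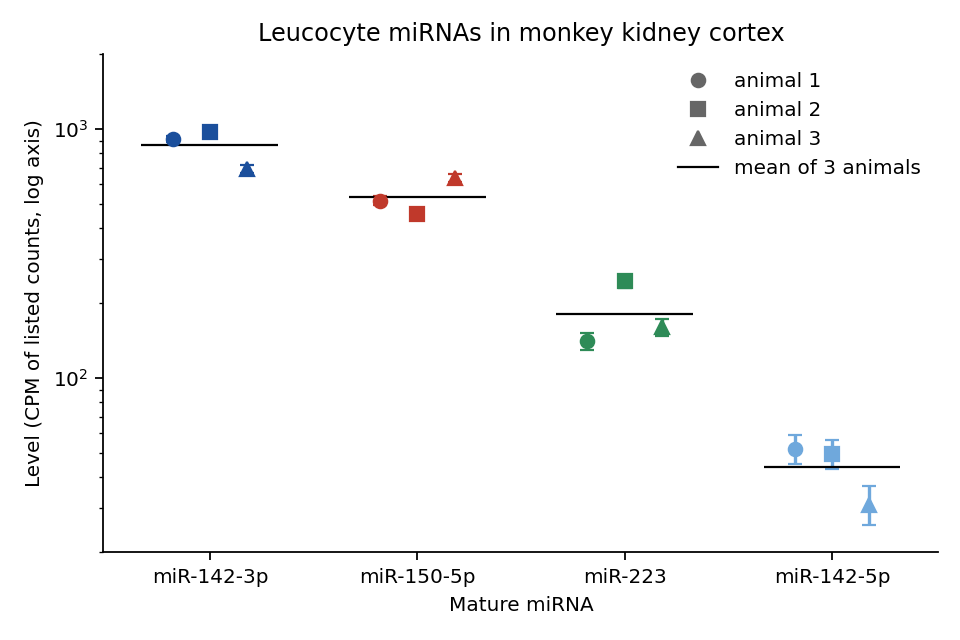
Level of each leucocyte miRNA in CPM of listed counts on a log axis, 1 point per animal with its exact Poisson 95% interval and a line at the mean of 3 animals. The 4 miRNAs keep 1 order in every animal, from miR-142-3p (691 to 975 CPM) down to miR-142-5p (31.1 to 52.0 CPM), while the order of the animals differs between them.

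The order miR-142-3p, miR-150-5p, miR-223, miR-142-5p held in 3 of 3 animals. Ratios within a library do not depend on scaling, and all 6 pairs were compared by flipping signs over the animals in an exact permutation test, two-sided, which gave p = 0.25 for every pair, the smallest that 3 animals allow. These are ratios of read counts, and whether the libraries captured the different sequences equally was not tested. A bias shared by all 3 libraries would remain in the order and in the ratios. miR-142-3p exceeded miR-150-5p 1.77-fold, 2.13-fold and 1.09-fold in animals 1, 2 and 3, a mean log2 ratio of 0.68 ± 0.50 (SD). Of the 6 pairs this was the one closest to equality, and in animal 3 the counts were 2736 and 2514. miR-150-5p exceeded miR-223 3.66-fold, 1.87-fold and 3.97-fold, a mean log2 ratio of 1.59 ± 0.60 (SD). In animal 2 the lymphocyte and the myeloid miRNA were thus nearest to each other. miR-223 exceeded miR-142-5p 2.70-fold, 4.95-fold and 5.15-fold, a mean log2 ratio of 2.03 ± 0.52 (SD). miR-142-3p lay 3.98-fold to 6.50-fold above miR-223, and miR-150-5p lay 9.24-fold to 20.4-fold above miR-142-5p.

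The joint count was made up differently in the 3 animals. miR-142-3p supplied 56.4%, 56.5% and 45.6% of it in animals 1, 2 and 3, with Wilson 95% intervals of 55.2 to 57.5, 55.4 to 57.5 and 44.3 to 46.8. miR-150-5p supplied 31.8% (30.7 to 32.9), 26.5% (25.5 to 27.5) and 41.9% (40.6 to 43.1). Animal 3 thus had the largest part from the lymphocyte miRNA and the smallest from miR-142-3p, beyond counting error in both cases. miR-223 supplied 8.67% (8.03 to 9.35), 14.2% (13.4 to 14.96) and 10.5% (9.79 to 11.3) in the same order. Animal 2 had the largest part from the myeloid miRNA, and its interval lay above those of the other animals. miR-142-5p supplied 3.21%, 2.87% and 2.05% in animals 1, 2 and 3.

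**Figure D2:**
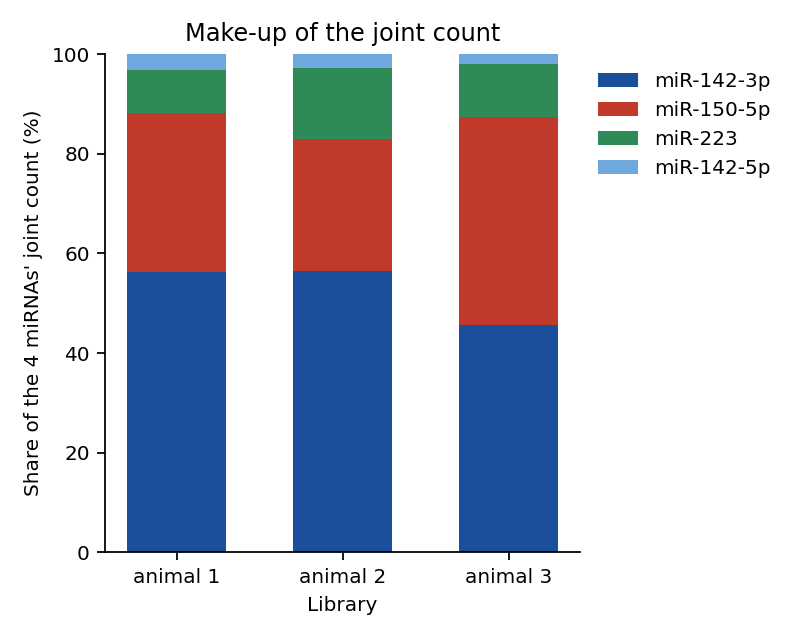
Share of the joint count of the 4 leucocyte miRNAs taken by each in the libraries of animals 1, 2 and 3, in percent, as stacked bars that sum to the whole. The miR-150-5p part is widest in animal 3 (41.9%) and the miR-223 part is widest in animal 2 (14.2%).

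Whether the animals differed by more than counting error was asked of every miRNA by a chi-square test of homogeneity, which set its counts against library sizes corrected by TMM, and p-values were adjusted by Benjamini-Hochberg across the 391 miRNAs. The test compares 3 libraries and not conditions, and animal and library preparation cannot be told apart. It called 315 of the 391 miRNAs, or 80.6%, at an adjusted p below 0.05. All 4 leucocyte miRNAs passed the filter of a mean count of 10 and all 4 were called, which against that background does not set them apart. By the chi-square test the adjusted p was 8.36e-52 for miR-150-5p, 1.50e-25 for miR-223, 1.75e-22 for miR-142-3p and 0.000403 for miR-142-5p. For the arms of miR-142 the call rested on animal 3: without that library the chi-square adjusted p was 0.329 for miR-142-3p and 0.445 for miR-142-5p, and 2 of the 4 stayed called.

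The differences were small in size. On the TMM scale the highest animal exceeded the lowest 1.26-fold for miR-142-3p (animal 2 over animal 3), 1.55-fold for miR-150-5p (animal 3 over animal 2), 1.56-fold for miR-142-5p (animal 1 over animal 3) and 1.68-fold for miR-223 (animal 2 over animal 1). With DESeq2 size factors the highest animal for miR-142-3p became animal 1. The other highest and lowest animals stayed under DESeq2 size factors and under totals. None of the 4 spanned more than 2-fold, against 156 of the 391 miRNAs, or 39.9%. That background fell to 92 of 391 without animal 1 and to 35 of 400 without animal 3. The median span was 1.56-fold over the leucocyte miRNAs and 1.71-fold over the 391.

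The coefficient of variation over the 3 animals was 12.2% for miR-142-3p, 21.9% for miR-142-5p, 22.8% for miR-150-5p and 26.5% for miR-223, with a median of 28.3% over the 391 miRNAs. Of the 391, 58 had a lower coefficient than miR-142-3p and 184 a lower one than miR-223. Counting error alone would give 1.63% at the mean count of miR-142-3p and 7.19% at that of miR-142-5p.

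**Figure D3:**
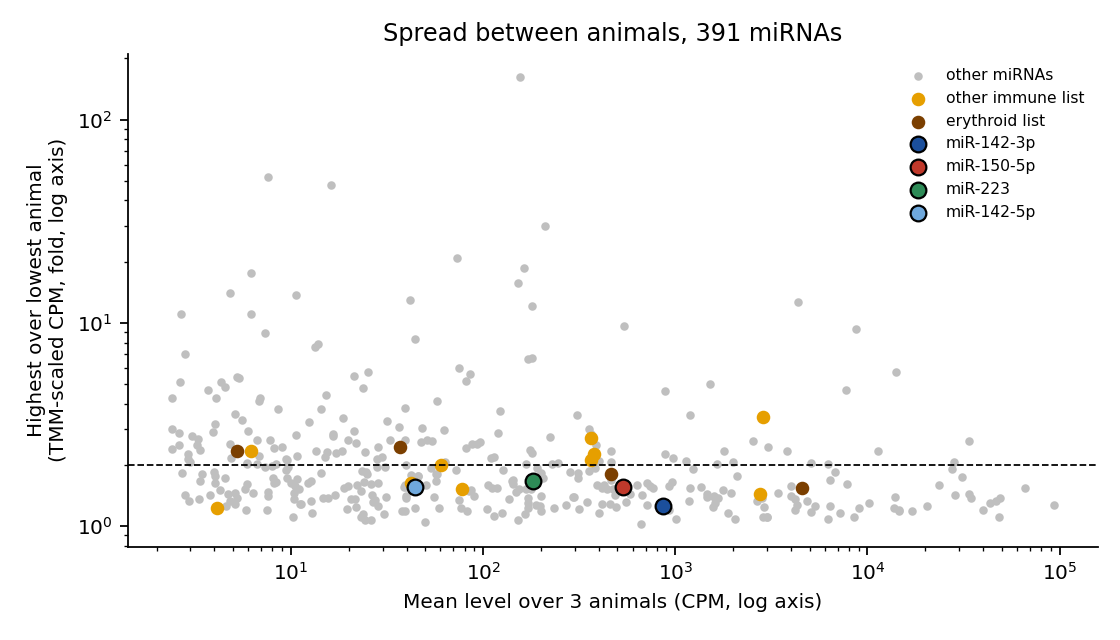
Highest over lowest animal in fold on the TMM scale against mean CPM over 3 animals, both on log axes, for the 391 miRNAs that averaged 10 or more counts, with the leucocyte, other immune and erythroid names coloured. The dashed line marks 2-fold, and the 4 leucocyte miRNAs lie under it, between 1.26-fold and 1.68-fold; 3 other miRNAs with 0 counts in an animal have no finite fold and are not drawn.

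The 5p and 3p arms of miR-142 are cut from 1 hairpin, so their ratio within a library is free of scaling and of the amount of hairpin. It is still a ratio of read counts of different sequences, and equal capture of both arms was not tested. The 3p arm had 17.6, 19.7 and 22.2 counts for each count of the 5p arm in animals 1, 2 and 3. Stated as a share of the hairpin's counts, the 5p arm took 5.39%, 4.83% and 4.30% in animals 1, 2 and 3, with Wilson 95% intervals of 4.74 to 6.12, 4.26 to 5.47 and 3.62 to 5.11. The 3 intervals overlapped, and the mean was 4.84% ± 0.543 (SD, n = 3).

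Both arms were listed for 122 hairpins, all with a mean of 10 or more counts over the arms together. Among them a chi-square test of the arm counts over the 3 libraries called 82, or 67.2%, after Benjamini-Hochberg adjustment. The miR-142 hairpin was not among them, with an adjusted p of 0.156 by this chi-square test. With 1 animal left out, the adjusted p of the same test lay between 0.066 (without animal 2) and 0.413. The 5p arm had only 123 to 233 counts, which limits the test. The log2 ratio of 3p over 5p of miR-142 moved by 0.34 between the highest and the lowest animal. The median hairpin moved by 1.20, and 10 hairpins moved less. That median includes hairpins whose minor arm had 0 counts in an animal, where the ratio is unsteady. Fewer of the 122 hairpins were called with any 1 library left out: 58 without animal 1, 72 without animal 2 and 41 without animal 3. The 3p arm dominated in all 3 animals in 49 of the 122 hairpins, and 21 hairpins were tilted more strongly toward 3p than miR-142. Regardless of side, the median tilt over the 122 was 20.1-fold, close to that of miR-142.

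**Figure D4:**
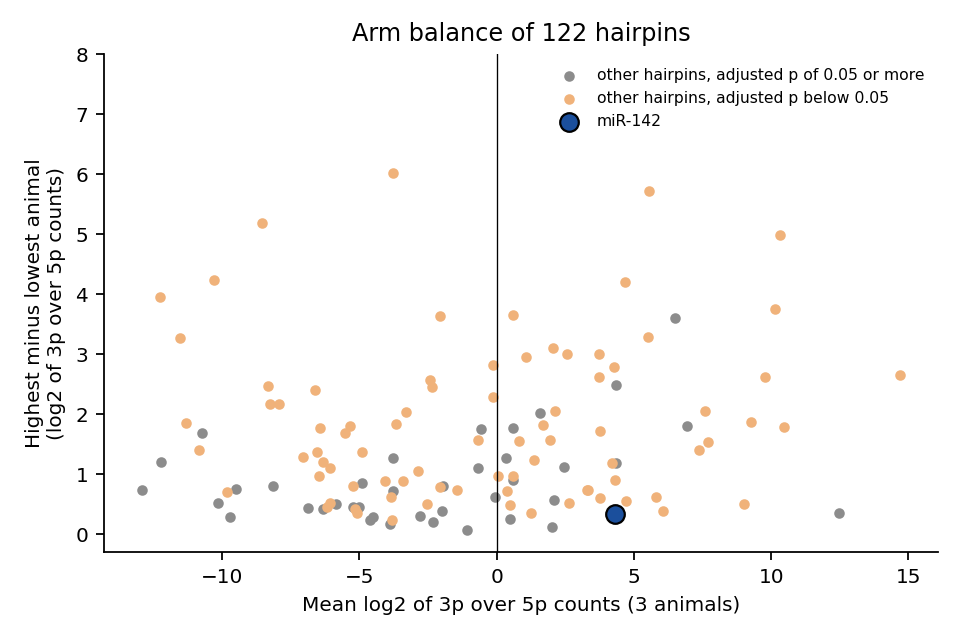
Highest minus lowest animal of the log2 ratio of 3p over 5p counts against the mean of that ratio over 3 animals, 1 point per hairpin, with 0.5 added to each count. miR-142 sits at 4.30 on the horizontal axis and 0.34 on the vertical axis, low among the 122 hairpins.

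The miRNAs whose pattern over the animals lay nearest to each leucocyte miRNA were found by the root mean square distance between log2 TMM-scaled levels, each centred on its mean over the 3 animals, among the 258 other miRNAs that averaged 100 or more counts. With 3 points per miRNA a small distance is a description and carries no test. For miR-150-5p the nearest was miR-451, the most abundant red cell miRNA of these libraries, at a distance of 0.0038. The centred values of animals 1, 2 and 3 were -0.06, -0.29 and 0.35 for miR-150-5p and -0.06, -0.28 and 0.34 for miR-451. miR-28-5p (0.019) and miR-139-5p (0.020) followed.

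For miR-142-3p the nearest were miR-15a-5p (0.038), miR-9-5p (0.043) and miR-18a-5p (0.054), and the opposite arm, miR-142-5p, came at place 29. Seen from miR-142-5p, the nearest were miR-32-5p (0.041), miR-7180-3p (0.049) and miR-30c-2-3p (0.052), with miR-142-3p at place 13. miR-223 had miR-875-5p (0.047), miR-664 (0.072) and miR-96 (0.12) nearest to it. Leucocyte miRNAs of different hairpins were not among the nearest 3 of each other. Seen from miR-150-5p, the others stood at places 149, 187 and 193 of 258, and seen from miR-223 at places 65, 119 and 157. For miR-223 and miR-150-5p the places were 109 and 156 seen from miR-142-3p, and 135 and 171 seen from miR-142-5p.

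miR-451 and miR-144 are made in the erythroid line, and in a tissue library they can come from the red cells it holds. The red cell content of these pieces was not tested. The 4 erythroid names summed to 5025, 4374 and 5765 CPM in animals 1, 2 and 3, which was 3.10, 2.53 and 3.80 times the leucocyte sum of the same library. On the TMM scale the erythroid sum was 4971, 4158 and 6130 CPM, a span of 1.47-fold beside 1.02-fold for the leucocyte sum. Animal 3 was highest and animal 2 lowest in the erythroid sum under TMM, DESeq2 size factors and totals, whereas the order of the animals in the leucocyte sum was not resolved. On average miR-451 supplied 4552 of the 5055 CPM of the erythroid sum. The order and span of that sum are therefore largely those of miR-451 and not of the list as a whole. Without animal 3 the erythroid span was 1.20-fold. The part of blood in the leucocyte levels was not tested.

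Within the erythroid list the names did not move together. miR-451 had 4369, 3900.5 and 5386 CPM in animals 1, 2 and 3, the same order of animals as miR-150-5p. miR-144 had 633, 424 and 326 CPM, with animal 1 highest and animal 3 lowest. Both orders held on the TMM scale and with DESeq2 size factors. The order of miR-451 and miR-150-5p was not particular to blood cell miRNAs. The tubule miR-194-5p had it too, with 4898, 4437 and 5250 CPM in animals 1, 2 and 3. The share of all miRNAs with that order was not counted. The other 2 erythroid names, both arms of miR-486, had means of 5.22 and 36.9 CPM. All 4 names were called by the chi-square test, beside 80.6% of the 391 miRNAs, and 2 spanned more than 2-fold, beside 39.9%.

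Of the other miRNAs with known roles in immune cells, the list of miR-146, miR-155, miR-181 and miR-342 held 11 names, which summed to 6923 CPM ± 1151 (SD, n = 3), or 3.62 to 5.44 times the leucocyte sum. Many of these are also made in tissue cells, unlike miR-142. Of the 10 names that passed the filter, 9 were called by the chi-square test, beside 80.6% of the 391 miRNAs, and 6 spanned more than 2-fold, beside 39.9%. Their median span was 2.06-fold, beside 1.56-fold for the leucocyte miRNAs and 1.71-fold over the 391.

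Among its abundant names, miR-342-3p, a miRNA of lymphocytes among other cells, had 2757, 1434 and 4431 CPM in animals 1, 2 and 3. Animal 3 was thus highest and animal 2 lowest, as for miR-150-5p, over a span of 3.46-fold on the TMM scale. miR-181a-5p, known from thymocyte development, had 2196, 3271 and 2790 CPM, and animal 2 or animal 3 was highest depending on the scaling. miR-146a-5p, a brake on innate signalling, had 561, 344 and 231 CPM, and its relative miR-146b-5p had 221, 431 and 434 CPM, highest where miR-146a-5p was lowest. miR-181b-5p had 354, 556 and 183 CPM, lowest in animal 3. The 6 rarer names of the list had means between 1.91 and 77.3 CPM.

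**Figure D5:**
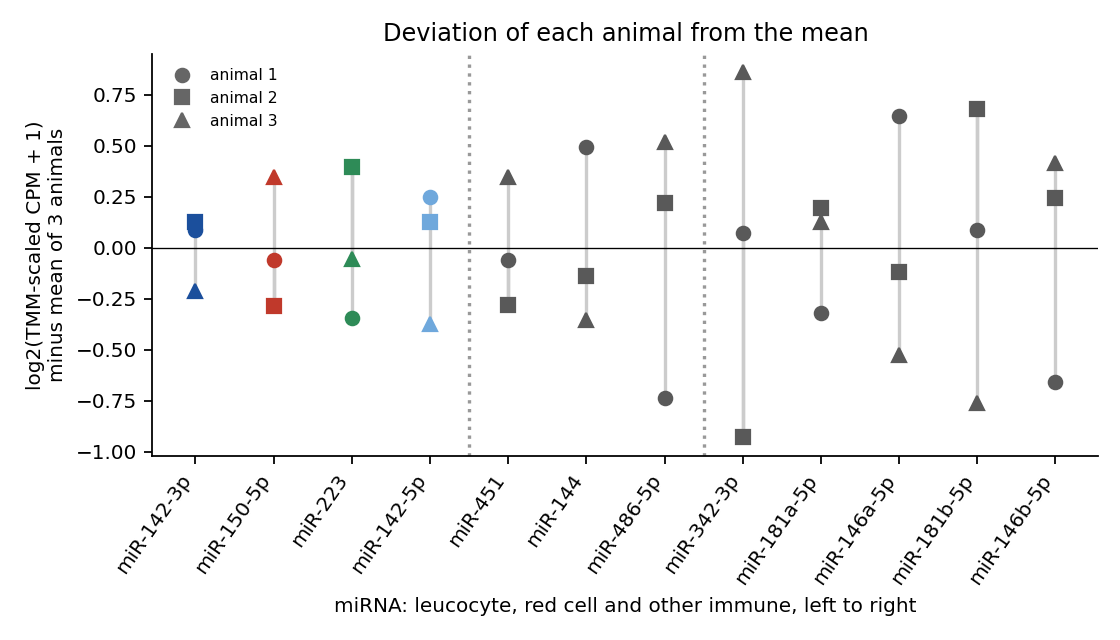
Log2(TMM-scaled CPM + 1) of each animal minus the mean of 3 animals, for the 4 leucocyte miRNAs, 3 red cell miRNAs and the 5 other immune miRNAs with a mean of at least 100 CPM. miR-150-5p, miR-451 and miR-342-3p share 1 order of animals, from animal 2 lowest to animal 3 highest, and both arms of miR-142 are lowest in animal 3. The tubule miR-194-5p, not drawn, has the same order as miR-150-5p.

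Neighbours in mean level showed how far single ranks are resolved. The names just above miR-142-3p were miR-455-3p and miR-20a-5p and those just below were miR-28-5p and miR-503-5p; of these only miR-503-5p kept its side in 3 of 3 animals on the TMM scale. Around miR-150-5p lay miR-361-3p and miR-361-5p above and miR-148b-3p and miR-214-3p below, each keeping its side in 1 or 2 animals. Around miR-223 lay miR-653-3p and miR-660-3p above and miR-381-3p and miR-500a-3p below, likewise in 1 or 2 animals. The rank of a leucocyte miRNA among its nearest neighbours is therefore mostly not resolved beyond the spread between animals.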

How the data were processed

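Small RNA libraries of kidney cortex from 3 monkeys, 1 group, were analysed. Reads had been mapped by the authors to M. fascicularis miRNAs, allowing 0 mismatches, and names below 15 reads dropped, per the file headers, and the deposited raw table holds a read count for each of 432 names. The smallest sum over the libraries was 15. The aligner, the miRNA release and the handling of reads matching several names are not given in the sources used here. Some names had identical counts in every animal, among them miR-376b-5p and miR-376c-5p. With 1 name kept per set of identical counts, the mean joint share of the leucocyte miRNAs was 0.163%. The second deposited table holds a normalized signal made with edgeR, per the file headers, which equals the count times 1 factor per library, within 0.1, for 100% of names. It was used for the human counterparts and as an alternative.

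CPM (counts per 1000000) used the totals of listed counts. TMM factors (edgeR 4.0.16, R 4.3.3) were 1.01, 1.05 and 0.940 for animals 1, 2 and 3. DESeq2 1.42.0 gave alternative size factors. Tests used scipy 1.17.1. The chi-square tests were checked on simulated counts that held counting error only. That check cannot show how the calls behave with the spread between these libraries. Columns of per-sample values left unmapped numbered 0.

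The named miRNAs are the 4 leucocyte miRNAs, names of the other immune and erythroid lists with a mean of at least 100 CPM, the 3 nearest patterns per leucocyte miRNA, and 2 neighbours in level on each side. miR-486, miR-126, miR-124a-3p and miR-122a-5p come from the marker lists but fall outside this rule for single names, and were picked after their values were seen. The same holds for miR-194, miR-204 and miR-215 of the tubule list. Members and lists were chosen with earlier results of these data known. Mature sequences and genomic positions were not used here.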

Additional observations from a re-analysis of the deposited data

How the results depend on the processing

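No comparison of conditions, paired or not, was possible because all libraries belong to 1 group. Of 150 recalculated values, 139 kept their call or stayed within the spread between animals, or within 1.5 times for counts, and 1 reversed direction, although a mean with 1 of 3 animals left out cannot move far. With the 10 most abundant miRNAs taken out of the denominator, the joint share was 0.317%, since the denominator is smaller. The span of the joint level, whose alternatives were chosen after seeing the data, was 1.14-fold with totals and reversed to 1.03-fold with DESeq2 size factors, where animal 2 became lowest, and 1.02-fold to 1.06-fold when 1 animal was left out. Leaving out 1 animal gave between 2 and 4 leucocyte miRNAs called different between libraries, 35 to 124 of all miRNAs spanning more than 2-fold, and 41 to 72 hairpins with a called arm share, the lowest of each being the value without animal 3. The cause was not tested, beyond the smaller number of libraries. At 123 to 233 counts, miR-142-5p is the least precise of the 4.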

Other observations

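The least abundant leucocyte name lay in the range of miRNAs known from other organs. miR-142-5p had a mean of 44.2 CPM ± 11.4 (SD, n = 3). The neuronal miR-124a-3p had 47.8, 32.1 and 36.4 CPM in animals 1, 2 and 3, a mean of 38.8 ± 8.15, and miR-9-5p had 60.6, 68.0 and 49.3 CPM, a mean of 59.3 ± 9.42. The liver miRNA, listed as miR-122a-5p, was lower at 6.63 CPM ± 2.41. miR-142-3p, miR-150-5p and miR-223 each lay above these 3 names in all 3 animals.

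Near miR-142-5p in mean level stood miR-376c-5p (45.9 CPM) and let-7e-3p (44.4 CPM) above and miR-10b-3p (44.0 CPM) and miR-133d-3p (42.9 CPM) below. None of the 4 kept its side in all 3 animals on the TMM scale. miR-10b-3p had 72.0, 52.0 and 8.09 CPM in animals 1, 2 and 3, a far wider spread than the 52.0, 49.5 and 31.1 CPM of miR-142-5p, and both were lowest in animal 3.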
